A study of Mus musculus with 6 samples.

Results

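The integrin subunits of mesenchyme and mesothelium described here are 10 genes chosen by gene symbol: the alpha chains Itga1, Itga3, Itga4, Itga5, Itga6, Itga7, Itga9 and Itgav and the beta chains Itgb5 and Itgb8. They are 10 of 20677 genes on the array and were read by 30 probe sets of 38011 that name 1 gene each. All probe sets were kept. For each gene the probe set of highest average log2 level stands for the gene, and 9 of the 10 genes had an intensity above the floor of 109 in at least 1 array. The floor is the median of all values in the 6 arrays. Probe sets of different genes bind differently, so levels are compared between arrays and not between genes.

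Integrins are receptors of an alpha and a beta chain that hold cells to the extracellular matrix or to other cells and signal through adhesion complexes. The alpha 1 chain pairs with beta 1 to bind collagens, alpha 3, alpha 6 and alpha 7 pair with beta 1 to bind laminins, and alpha 5 pairs with beta 1 to bind fibronectin. The alpha 4 and alpha 9 chains with beta 1 bind VCAM1 and several matrix proteins, and alpha 4 beta 1 is the main adhesion receptor of blood progenitors. The alpha v chain pairs with beta 5 to bind vitronectin and with beta 8 to bind and activate latent TGF-beta.

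All 6 groups came from E12.5 embryos of wild-type C57Bl6 mice, and each was measured on 1 array of liver RNA. Cells sorted for ALCAM, an immunoglobulin family adhesion molecule, were divided by integrin alpha 8 into ITGA8+ and ITGA8- cells and by podoplanin, a surface glycoprotein of mesothelium, into PDPN+ and PDPN- cells. The 2 remaining arrays held ALCAM+ cells and liver cells. Whether embryos were pooled, and how the gates were set, is not given in the sources used here. There are no replicates, so no test or spread between samples can be given, and each difference is between 2 arrays.

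The values are intensities on a linear scale, and differences are of log2(intensity + 16). The 4 fraction arrays had medians of 123 to 200, while ALCAM+ and liver, at 66 and 42, lie on a lower scale and are compared with each other only. The sorted genes matched the labels, with Itga8 at 4354 in ITGA8+ against 871 in ITGA8- cells and Pdpn at 7746 in PDPN+ against 117 in PDPN- cells. Alcam was at 13425 in ALCAM+ against 3207 in liver cells. Relative to the median difference of 0.90 between these 2 arrays, Alcam was higher by 1.16 on the log2 scale. Hepatoblast genes were not removed by the sorts, with all 8 markers above the floor in each of the 4 fraction arrays. Blood cell markers differed between the sorts, and the PDPN- array had 0 of 10 megakaryocyte markers above the floor. Fewer cells of a type and less RNA per cell cannot be told apart in bulk RNA. As the only measure of error within an array, the probe set that represents a gene was set against the gene's other probe sets. Their log2 differences lay apart by a median of 0.36 in PDPN+ minus PDPN-, with 90% within 1.15. For ITGA8+ minus ITGA8- the median gap was 0.51 and 90% lay within 1.26. Those limits were 1.68 in ITGA8+ minus PDPN+ and 1.33 in ALCAM+ minus liver. They hold no variation between samples or sorts, so a difference past them need not recur in another sample.

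The laminin receptor chains Itga3 and Itga6 had their lowest level of the 4 fractions in PDPN- cells. Itga3 was at 2057 in ITGA8+, 2679 in ITGA8-, 2874 in PDPN+ and 527 in PDPN- cells, and at 692 in ALCAM+ and 41 in liver cells. Itga6 was at 2022 in ITGA8+, 2607 in ITGA8-, 2773 in PDPN+ and 262 in PDPN- cells, and at 1973 in ALCAM+ and 572 in liver cells. For both genes 3 fractions lay within 2-fold of each other and PDPN- stood apart below them. The second Itga6 probe set was at 73 to 194 in the fractions, and in the PDPN pair it was below the floor in both arrays, so the PDPN difference of Itga6 rests on 1 probe set.

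The probe sets of Itga3 differed over the ITGA8 pair. One other probe set read 510 in ITGA8+ and 2034 in ITGA8- cells, and 2721 in PDPN+ and 380 in PDPN- cells. The remaining one, nearer the floor, read 67 in ITGA8+ and 325 in ITGA8- cells, and 246 in PDPN+ and 72 in PDPN- cells. All 3 were higher in PDPN+ than PDPN- cells, by 1.57 to 2.79 on the log2 scale, and all 3 were lower in ITGA8+ than ITGA8- cells. In the ITGA8 pair the differences were -1.96 and -2.04 for these probe sets and -0.38 for the one that represents the gene. The levels of Itga3 were therefore higher in the PDPN+ and ITGA8- fractions by every probe set, and past 2-fold in both pairs by 2 of 3. The third laminin receptor chain, Itga7, best known from muscle, stayed at 5 to 6 in the fractions, 16 in ALCAM+ and 12 in liver cells, below the floor in each of the 6 arrays.

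Itga1, the collagen receptor chain, was at 1294 in ITGA8+, 1206 in ITGA8-, 1577 in PDPN+ and 2163 in PDPN- cells, and at 400 in ALCAM+ and 281 in liver cells. No 2 fractions differed by 2-fold on that probe set. The other probe set of Itga1 read 519 in ITGA8+ and 180 in ITGA8- cells, a log2 difference of 1.45, and 261 in PDPN+ and 775 in PDPN- cells, a difference of -1.51. Both probe sets were higher in PDPN- than PDPN+ and in ITGA8+ than ITGA8- cells, and 1 of 2 passed 2-fold.

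Itga5, the fibronectin receptor chain, was at 5117 in ITGA8+, 2555 in ITGA8-, 2222 in PDPN+ and 4436 in PDPN- cells, and at 914 in ALCAM+ and 258 in liver cells. The ITGA8+ and PDPN- fractions were the high ones, and the 2 differences, 0.997 for ITGA8+ minus ITGA8- and -0.992 for PDPN+ minus PDPN-, lay just inside 2-fold. Its 3 other probe sets, at 79 to 769 in the fractions, did not all follow. Over the ITGA8 pair these 3 were negative, from -0.83 to -0.10, opposite to the probe set that represents the gene.

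Itgav, the common partner of beta 5 and beta 8, was at 13343 in ITGA8+, 12458 in ITGA8-, 14600 in PDPN+ and 13358 in PDPN- cells, and at 4218 in ALCAM+ and 845 in liver cells. The 4 fractions spanned 0.23 on the log2 scale, the narrowest of the 10 genes after the undetected Itga7. The 4 other Itgav probe sets were at 28 to 206 in the fractions, and all 4 were lower in PDPN- than PDPN+ cells.

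The beta chains that pair with alpha v had different patterns. Itgb5 was at 2279 in ITGA8+, 1033 in ITGA8-, 1357 in PDPN+ and 2213 in PDPN- cells, and at 396 in ALCAM+ and 99 in liver cells. Its 4 probe sets all had the higher value in ITGA8+ than ITGA8- cells, by 0.09 to 1.13, and the lower value in PDPN+ than PDPN- cells, with differences of -1.22 to -0.70. In each pair 2 of 4 passed 2-fold, and 1 of them, at 2020 in ITGA8+, 915 in ITGA8-, 1066 in PDPN+ and 2189 in PDPN- cells, passed in both. Itgb8, with a single probe set, was at 723 in ITGA8+, 886 in ITGA8-, 202 in PDPN+ and 29 in PDPN- cells, and at 89 in ALCAM+ and 6 in liver cells. Both ITGA8 fractions lay above both PDPN fractions for Itgb8, and its PDPN- value was below the floor.

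Itga4 was at 7886 in ITGA8+, 6466 in ITGA8-, 990 in PDPN+ and 341 in PDPN- cells, and at 2146 in ALCAM+ and 2285 in liver cells. The fractions separated by sort: the lower of the ITGA8 pair was 6.44-fold above the higher of the PDPN pair. Its 4 other probe sets were also higher in both ITGA8 fractions than in both PDPN fractions, at 35 to 625 in the ITGA8 fractions and 11 to 122 in the PDPN fractions. Itga9, the related chain that binds tenascin-C and osteopontin, was at 1394 in ITGA8+, 517 in ITGA8-, 338 in PDPN+ and 269 in PDPN- cells, and at 219 in ALCAM+ and 74 in liver cells. A second Itga9 probe set read 1479 in ITGA8+, 848 in ITGA8-, 84 in PDPN+ and 74 in PDPN- cells. The remaining one read 331 in ITGA8+, 266 in ITGA8-, 219 in PDPN+ and 98 in PDPN- cells. By all 3 probe sets of Itga9 the ITGA8 fractions were above the PDPN fractions, and ITGA8+ was the highest.

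**Figure D1:**
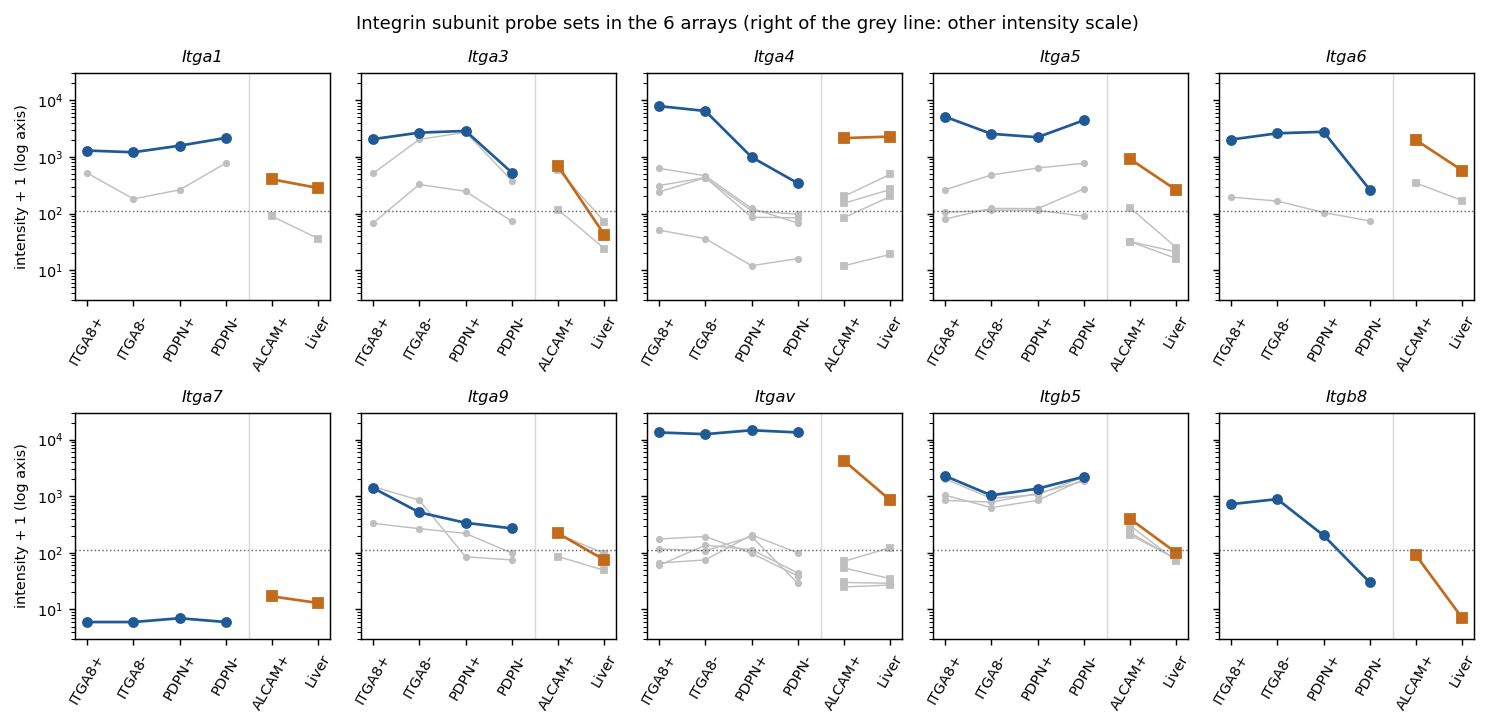
Intensity plus 1 on a log axis of each of the 30 probe sets of the 10 integrin subunit genes in the 6 arrays; blue and orange mark the probe set that represents the gene, grey the others, and the dotted line the floor of 109. Itga3 and Itga6 dip in PDPN- cells, Itga4 and Itgb8 are high in both ITGA8 fractions, the representing probe set of Itgav is level over the fractions and Itga7 stays below the floor; ALCAM+ and liver have another intensity scale.

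The first comparison asks which subunits go with podoplanin. Of the 9 members above the floor in PDPN+ or PDPN- cells, Itga3, Itga4, Itga6 and Itgb8 were at least 2-fold higher in PDPN+ cells, 4 in all, and 0 were lower. Over all 13419 genes above the floor, 19.8% were 2-fold higher and 7.84% lower. Itga6 differed by 3.33 on the log2 scale, and 2.92% of all genes had a larger difference in either direction. Itga3 differed by 2.41, Itgb8 by 2.28 and Itga4 by 1.49. The differences of Itga3, Itga6 and Itgb8 were larger than the 1.15 within which 90% of the probe sets of a gene agreed, though Itga6 and Itgb8 each had only 1 probe set above the floor here. The difference of Itga4 was larger too, but its 2 other probe sets above the floor were at 0.73 and 0.18, so its call rests on 1 of 3. Averaged over all probe sets of a gene, Itga4 was at 0.45 and no longer past 2-fold, whereas Itgav, at 1.10, was. The members called by that average were Itga3, Itga6, Itgav and Itgb8, with 17.1% of all genes higher and 7.39% lower. The single probe set of Itgb8, at 202 in PDPN+ cells, would not be counted with the floor at 218. Itga5, at -0.99, Itgb5, at -0.70, and Itga1, at -0.45, had the higher value in PDPN- cells. Itga9 was at 0.31 and Itgav at 0.13, while the 4 other Itgav probe sets were at 0.95, 1.13, 2.25 and 1.07. The median of the 9 members was 0.31, and that of all genes 0.04.

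Markers of blood cells and of mesothelium were also higher in PDPN+ cells. Megakaryocyte markers, 10 of 10 above the floor in PDPN+ and 0 of 10 in PDPN- cells, summed to 34299 in PDPN+ and 327 in PDPN- cells. Macrophage markers were above the floor in 10 of 10 in PDPN+ and 1 of 10 in PDPN- cells, and summed to 37408 in PDPN+ and 491 in PDPN- cells. Haematopoietic progenitor markers were above the floor in 7 of 8 in PDPN+ and 2 of 8 in PDPN- cells, with sums of 3765 in PDPN+ and 629 in PDPN- cells. Endothelial markers were above the floor in 6 of 10 in PDPN+ and 1 of 10 in PDPN- cells, with sums of 4890 in PDPN+ and 535 in PDPN- cells. None of these markers was at 0. Stellate cell markers summed to 48573 in PDPN+ and 46696 in PDPN- cells, with 2 of 13 past 2-fold higher and 2 lower. Of the 13, 9 had the lower value in PDPN+ cells and the list median was -0.64. Without Alcam, the gene of the first sort, the sums were 29241 in PDPN+ and 29700 in PDPN- cells. Mesothelial markers summed to 89896 in PDPN+ and 42792 in PDPN- cells, and 11 of 14 were 2-fold higher in PDPN+ cells. Hepatoblast markers summed to 140908 in PDPN+ and 167109 in PDPN- cells, and all 8 had the lower value in PDPN+ cells. Past 2-fold were 2 of them, Foxa2 at -1.69 and Foxa1 at -1.39. Platelets carry alpha 6 beta 1 and blood progenitors alpha 4 beta 1; the part of these cells in the differences of Itga6 and Itga4 was not tested. With ITGA8+ in place of PDPN- cells, the differences of Itga3 and Itga6 were 0.48 and 0.45, and those of Itga4 and Itgb8 were -2.97 and -1.76. Of 9 members above the floor, 0 were then 2-fold higher and 4 lower, Itga4, Itga5, Itga9 and Itgb8, against 14.1% of all 14087 genes higher and 16.1% lower.

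The second comparison asks which subunits go with integrin alpha 8. Of 9 members above the floor in ITGA8+ or ITGA8- cells, 2 were at least 2-fold higher in ITGA8+ cells, Itga9 by 1.40 and Itgb5 by 1.13 on the log2 scale, and 0 were lower. Over all 13866 genes above the floor, 5.31% were 2-fold higher and 5.95% lower. Itga9 lay past the 1.26 within which 90% of the probe sets of a gene agreed, and Itgb5 did not. The other Itga9 probe sets were at 0.79 and 0.30, so its call rests on 1 of 3. For Itgb5 2 of 4 passed 2-fold, both with the suffix _x_at, and the others were at 0.71 and 0.09. With specific probe sets only, those with a plain _at suffix, Itga9 was at 0.79 and Itgb5 at 0.09, so neither passed. Itga5, at 0.997, was just short of 2-fold. The other 6 members, from -0.38 for Itga3 to 0.29 for Itga4, were inside that range. The median of the 9 members was 0.10, and that of all genes 0.00. With 1 value per gene averaged over its probe sets, 0 members were 2-fold higher and Itga3, at -1.46, was lower, against 3.47% of 13031 genes higher and 4.84% lower. Stellate cell markers were above the floor in 13 of 13 in ITGA8+ and 12 of 13 in ITGA8- cells, 6 were 2-fold higher in ITGA8+ cells, and their sums were 69731 in ITGA8+ and 45858 in ITGA8- cells. Megakaryocyte markers, 10 of 10 above the floor in ITGA8+ and 9 of 10 in ITGA8- cells, summed to 40262 in ITGA8+ and 17454 in ITGA8- cells. Mesothelial markers summed to 34759 in ITGA8+ and 64430 in ITGA8- cells, and 9 of 14 were 2-fold lower in ITGA8+ cells. Erythroid markers summed to 34982 in ITGA8+ and 27346 in ITGA8- cells. Macrophage markers summed to 3022 in ITGA8+ and 1092 in ITGA8- cells. Of the 10, 5 were above the floor, and 4 of these were 2-fold higher in ITGA8+ cells, led by C1qb at 2.24 and Fcer1g at 1.67. Lyz2 was at -0.12. C1qa, C1qc, Cd5l, Adgre1 and Marco were below the floor in both arrays, and of these C1qc and Cd5l had the lower value in ITGA8+ cells. The part of these cells in the differences was not tested.

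The PDPN and ITGA8 pairs share no array, so a gene can be read in both. By the representing probe sets, 0 members passed 2-fold in opposite directions. Over all 12793 genes above the floor in both pairs, 2.46% were 2-fold higher in PDPN+ than PDPN- and lower in ITGA8+ than ITGA8- cells, and 0.75% were lower in PDPN+ and higher in ITGA8+ cells. Itga5 and Itgb5 came nearest to the second pattern, as given above, and 1 probe set each of Itga1 and Itgb5 passed 2-fold in both pairs in that pattern. The first pattern was met by 2 probe sets of Itga3. The shares given here are of genes by their representing probe sets, and no share over all probe sets was counted.

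**Figure D2:**
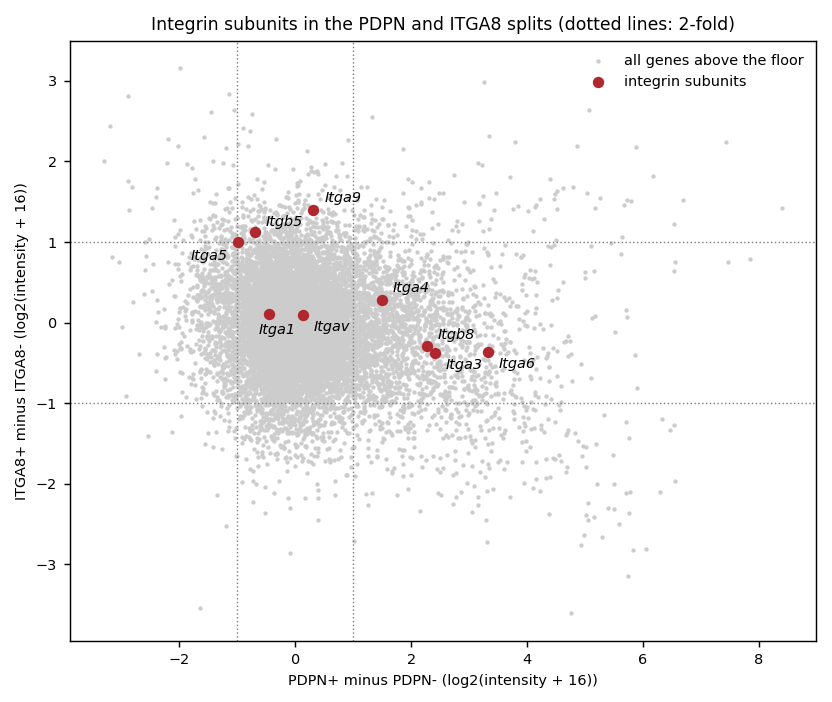
Each point is a gene; the x axis is PDPN+ minus PDPN- and the y axis ITGA8+ minus ITGA8-, both in log2(intensity + 16), with integrin subunits in red, all genes above the floor in both pairs in grey and dotted lines at 2-fold. Itga3, Itga4, Itga6 and Itgb8 lie right of the 2-fold line, and Itga9 and Itgb5 above it, with Itga5 at the corner of both lines.

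ITGA8+ and PDPN+ cells, the positive fractions of the 2 sorts, were set against each other. Of 9 members above the floor, 4 were at least 2-fold higher in ITGA8+ cells and 0 were lower. Itga4 differed by 2.97, Itga9 by 1.99, Itgb8 by 1.76 and Itga5 by 1.20 on the log2 scale. Over all 14087 genes above the floor, 16.1% were higher and 14.1% lower. For Itga4, 2.02% of all genes had a larger difference. The first 3 of these values exceeded the 1.68 within which 90% of the probe sets of a gene agreed, and that of Itga5 did not. The 3 other probe sets of Itga5 went the other way, to -1.23. The median of the 9 members was 0.74, and that of all genes 0.04. Averaged over probe sets, Itga4, Itga9 and Itgb8 were higher, Itga5 was at -0.17 and Itga3, at -1.51, was lower, against 12.6% of all genes higher and 12.4% lower. This comparison shares an array with each of the pairs above. Macrophage markers were 2-fold lower in ITGA8+ cells in 10 of 10, with a median of -4.13 and sums of 3022 in ITGA8+ and 37408 in PDPN+ cells. Mesothelial markers were lower in 10 of 14, with sums of 34759 in ITGA8+ and 89896 in PDPN+ cells. Erythroid markers were higher in 7 of 7 above the floor, megakaryocyte markers in 4 of 10 and stellate cell markers in 6 of 13. Their part in the differences of the members was not tested.

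Taking both arrays of each sort, Itga4 and Itgb8 had both ITGA8 fractions at least 2-fold above both PDPN fractions. Such a gap toward the ITGA8 sort was found for 5.22% of 14492 genes, and toward the PDPN sort for 2.93%, with 0 members. A difference between the sorts cannot be told apart from a difference in how the 2 pairs of samples were prepared. Erythroid markers were also higher in the ITGA8 fractions, with sums of 34982 in ITGA8+, 27346 in ITGA8-, 6266 in PDPN+ and 3567 in PDPN- cells. Haematopoietic progenitor markers summed to 13715 in ITGA8+, 13679 in ITGA8-, 3765 in PDPN+ and 629 in PDPN- cells, and most of that difference was in 1 gene. Myb, a transcription factor of progenitors, was at 10987 in ITGA8+, 10636 in ITGA8-, 1073 in PDPN+ and 240 in PDPN- cells. Without it the sums were 2728 in ITGA8+, 3043 in ITGA8-, 2692 in PDPN+ and 389 in PDPN- cells. Of 7 progenitor markers above the floor, 2 were 2-fold higher in ITGA8+ than PDPN+ cells and 3 were lower, namely Ptprc at -2.25, Cd48 at -1.68 and Spi1 at -1.19. The 8 erythroid markers were above the floor in 7 in each ITGA8 fraction, in 7 in PDPN+ and in 6 in PDPN- cells, and none was at 0. The part of blood cells in the level of Itga4 was not tested.

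**Figure D3:**
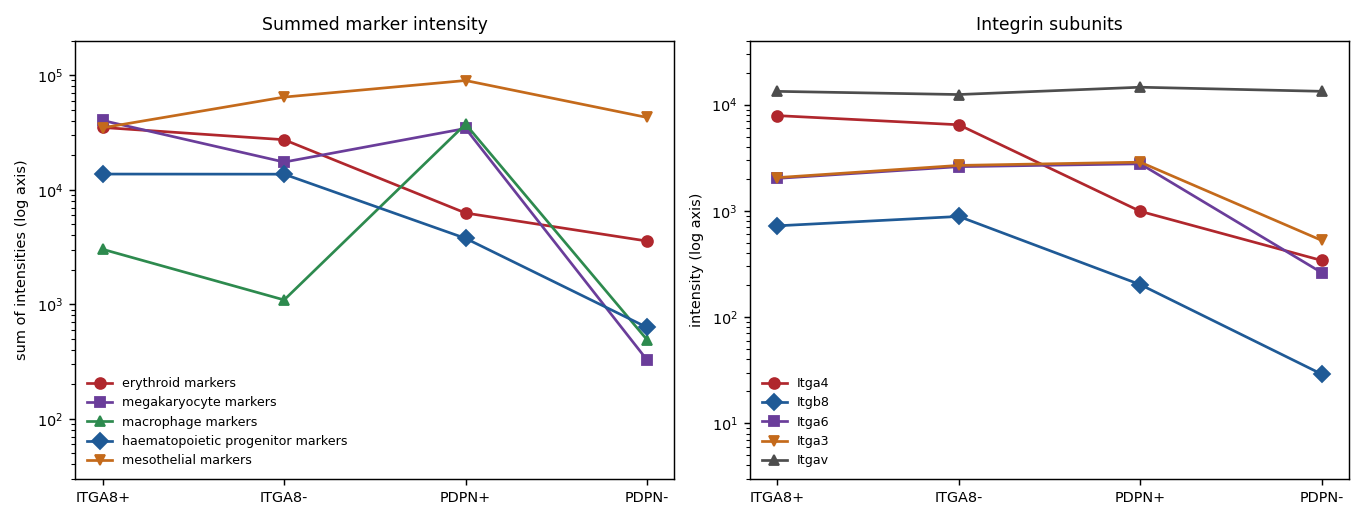
Left, the sum of intensities of each marker list in the 4 fraction arrays. Right, the intensities of 5 integrin subunits in the same arrays, both on log axes with lines joining the arrays of a list or gene. Krt18, Cdh1 and Krt8 make up most of the mesothelial sum in PDPN- cells. Erythroid markers and Itga4 are highest in the ITGA8 fractions, as is the progenitor sum, which without Myb is 2728 in ITGA8+, 3043 in ITGA8- and 2692 in PDPN+ cells, and megakaryocyte and macrophage markers fall to 327 and 491 in PDPN- cells, where Itga6 is at 262.

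ALCAM+ and liver cells were compared to see what the first sort enriched. These arrays differ in scale, with a median difference of 0.90 on the log2 scale over all genes, and differences are given relative to it. Of 8 members above the floor, Itga3, by 2.74, and Itgav, by 1.40, were at least 2-fold higher in ALCAM+ cells, and 0 were lower. Over all 10989 genes above the floor, 15.4% were higher and 11.3% lower. Both values exceeded the 1.33 within which 90% of the probe sets of a gene agreed. All 3 probe sets of Itga3 were higher. The 4 other probe sets of Itgav, at 24 to 123, were negative relative to the shift, from -1.59 to -0.43. Only 1 of them was above the floor, at 70 in ALCAM+ and 123 in liver cells. The rest, at 29 and 28, 53 and 34, and 24 and 26, were below the floor in both arrays, so their direction says little about Itgav. Itgb5, at 0.95, Itga5, at 0.87, and Itga6, at 0.86, were under 2-fold. Itga4, at -0.99, had the lowest value of the members, and all 5 of its probe sets were negative, from -2.13 to -0.99. In the same arrays 7 of 7 erythroid markers above the floor were 2-fold lower in ALCAM+ cells. Itgb8 did not reach the floor. As deposited, without removing the shift, 6 of the 8 members were 2-fold higher and 0 lower, against 45.1% of all genes higher and 2.64% lower, and Itga4 differed by -0.09. Averaged over probe sets, and relative to the shift, Itga3 was higher, Itgav was at -0.31 and Itga4, at -1.42, was lower. Of all genes 12.2% were then higher and 8.51% lower. The Itgav average takes in its probe sets below the floor.

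**Figure D4:**
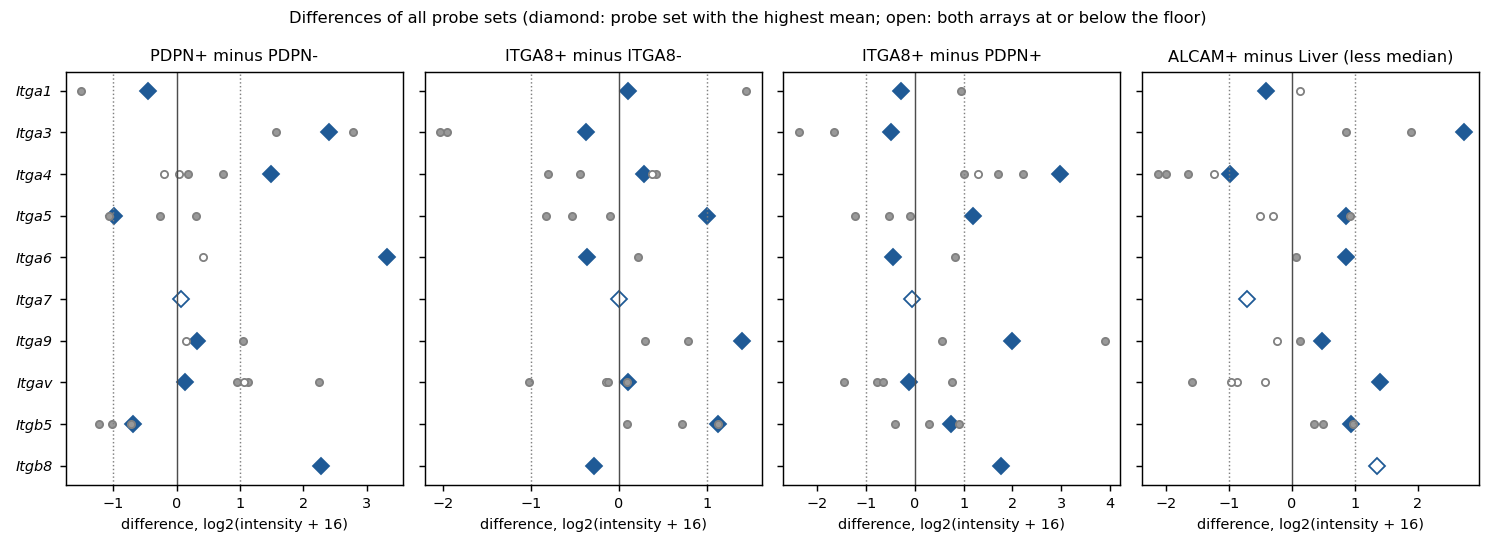
Difference on the log2(intensity + 16) scale of every probe set (x axis) of each integrin subunit (rows) in the 4 comparisons, with ALCAM+ minus liver less its median. Diamonds mark the probe set that represents the gene, open symbols those at or below the floor in both arrays, and dotted lines 2-fold; the 3 probe sets of Itga3 lie between 1.57 and 2.79 in PDPN+ minus PDPN-, and those of Itga5 lie on both sides of 0 in ITGA8+ minus ITGA8-.

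Scaling changed the balance of genes past 2-fold. The higher genes made up 71.7% of those past 2-fold in PDPN+ minus PDPN-, against 57.6% after quantile normalisation. Between ITGA8+ and ITGA8- these shares were 47.1% and 61.1%, and in ALCAM+ minus liver 57.8% relative to the shift, against 94.5% as deposited. After quantile normalisation the members past 2-fold in PDPN+ minus PDPN- were again Itga3, Itga4, Itga6 and Itgb8, with 13.7% of all genes higher and 10.1% lower. Between ITGA8+ and ITGA8- Itga5, at 1.06, joined Itga9 and Itgb5, with 7.13% of all genes higher and 4.54% lower. Among members under 2-fold, Itga9 changed sign to -0.15 in PDPN+ minus PDPN- and Itgav to -0.09 in ITGA8+ minus ITGA8-.

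Promoter sequence is shown for 4 members. Itga3 had the higher values in PDPN+ and ITGA8- cells, and Itga4 separated the sorts. Itga5 and Itgb5 had the higher values in PDPN- and ITGA8+ cells by the probe sets that represent them. The 3 other Itga5 probe sets were lower in ITGA8+ than ITGA8- cells. RefSeq's table (GRCm38.p6) matched 8 of the 10 members, not Itga6 and Itga7. The 250 bases before the annotated start are printed for Itga3 at chr11:95076715-95076964 (- strand), Itga5 at chr15:103366792-103367041 (- strand), Itgb5 at chr16:33829415-33829664 (+ strand) and Itga4 at chr2:79255176-79255425 (+ strand). Each runs 5′ to 3′ on the gene's strand, and for Itga3, with 2 annotated starts, the upstream one is shown. Capitals mark the GC box GGGCGG or its complement on the other strand, CCGCCC.
Itga3: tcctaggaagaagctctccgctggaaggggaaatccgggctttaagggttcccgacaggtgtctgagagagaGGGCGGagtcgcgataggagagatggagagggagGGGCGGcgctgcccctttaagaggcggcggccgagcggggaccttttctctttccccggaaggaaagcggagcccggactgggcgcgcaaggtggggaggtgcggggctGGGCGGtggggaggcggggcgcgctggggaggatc
Itga5: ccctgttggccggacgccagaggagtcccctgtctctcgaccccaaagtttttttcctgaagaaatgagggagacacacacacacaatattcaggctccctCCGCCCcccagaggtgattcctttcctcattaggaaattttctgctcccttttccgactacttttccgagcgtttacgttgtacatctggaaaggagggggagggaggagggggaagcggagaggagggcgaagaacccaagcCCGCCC
Itgb5: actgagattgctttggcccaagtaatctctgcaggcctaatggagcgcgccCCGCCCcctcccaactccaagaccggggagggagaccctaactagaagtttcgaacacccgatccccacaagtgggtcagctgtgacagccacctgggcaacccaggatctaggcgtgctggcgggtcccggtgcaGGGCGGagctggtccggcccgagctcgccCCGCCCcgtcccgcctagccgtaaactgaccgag
Itga4: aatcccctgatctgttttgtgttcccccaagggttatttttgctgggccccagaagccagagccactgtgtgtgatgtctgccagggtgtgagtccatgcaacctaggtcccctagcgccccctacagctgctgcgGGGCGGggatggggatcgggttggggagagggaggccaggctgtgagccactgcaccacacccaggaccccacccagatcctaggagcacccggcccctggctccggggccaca
The GC box occurred 3 times in the Itga3 window, 2 times in Itga5, 3 times in Itgb5 and 1 time in Itga4. It was not in the windows of Itga1, Itga9, Itgav or Itgb8, and 32.7% of all 32851 promoters of that length held it. The AP-1 motif TGANTCA, in 6.75% of promoters, was in none of the 9 member windows, and the ETS motif CGGAAG, in 13.6%, was in those of Itga3 and Itgav. Both strands were searched. A match is a description of these letters only.

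The partner chain of most of the alpha subunits, Itgb1, was at 1733 in ITGA8+, 2380 in ITGA8-, 2542 in PDPN+ and 2274 in PDPN- cells, within 2-fold over the fractions. List counts from here on are to be read beside the shares of all genes 2-fold higher and lower. These were 19.8% and 7.84% in PDPN+ minus PDPN-, and 5.31% and 5.95% in ITGA8+ minus ITGA8-. For ITGA8+ minus PDPN+ they were 16.1% and 14.1%, and for ALCAM+ minus liver 15.4% and 11.3%. Of 14 measured integrin subunits outside the members, 8 were above the floor in the PDPN pair, where 5 were 2-fold higher and 1 lower in PDPN+ cells. The higher ones were the platelet integrin chains Itgb3, by 4.42, and Itga2b, by 4.39, and the leukocyte chains Itgal, by 4.35, Itgb2, by 4.01, and Itgax, by 2.13. The lower one was Itga8, by -1.57. Itgb3, which also pairs with alpha v, was at 6252 in ITGA8+, 3244 in ITGA8-, 5403 in PDPN+ and 238 in PDPN- cells, and Itga2b was at 1843 in ITGA8+, 526 in ITGA8-, 571 in PDPN+ and 12 in PDPN- cells. In ITGA8+ minus ITGA8- cells 3 of 9 were higher, Itga8 by 2.30, Itga2b by 1.78 and Itgb2 by 1.39, and none was lower. In ITGA8+ minus PDPN+ cells 5 were higher and 3 lower of 10, with Itga8 at 2.54, Itga10 at 1.91 and Itgal at -3.11. In ALCAM+ minus liver 3 of 6 were higher: Itga8 by 1.91, Itga2b by 1.54 and Itgb3 by 1.15.

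Ligands of the laminin receptors split between the fractions. Of 9 laminin chains above the floor, 6 were 2-fold higher in PDPN+ than PDPN- cells and none was lower, against 19.8% and 7.84% of all genes. Lama5 was at 3.41, Lamc3 at 2.78 and Lamb1 at 1.64. Between ITGA8+ and ITGA8- cells Lama1, at 1.32, and Lama2, at 1.11, were higher, while Lama5, at -2.06, Lamc1, at -1.12, and Lamc3 were lower. Lama5, a chain of epithelial basement membranes, thus went with the 2 fractions in which Itga3 was higher: it was at 769 in ITGA8+, 3265 in ITGA8-, 4215 in PDPN+ and 381 in PDPN- cells. The median of the laminin list was 1.64 in the PDPN pair and -0.56 in the ITGA8 pair. In ITGA8+ minus PDPN+ cells 3 chains were higher and 3 lower of 9, and in ALCAM+ minus liver 4 of 7 were higher and none was lower, led by Lama5 at 2.57.

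Collagen genes listed as ligands of alpha 1 were higher in 4 of 8 in PDPN+ than PDPN- cells, led by Col6a2 at 1.94 and Col6a1 at 1.90, and none was lower. They were also higher in 4 of 8 in ITGA8+ than ITGA8- cells, namely Col6a2 at 1.32, Col4a2 at 1.18, Col4a1 at 1.17 and Col13a1 at 1.12. Col4a1, of basement membrane collagen, was at 7337 in ITGA8+, 3262 in ITGA8-, 1646 in PDPN+ and 2796 in PDPN- cells. Like both Itga1 probe sets, Col4a1 had the higher value in ITGA8+ and PDPN- cells, but its difference in the PDPN pair was -0.76, under 2-fold. The list as a whole did not share that side. Its median was 1.13 in PDPN+ minus PDPN- and 1.01 in ITGA8+ minus ITGA8-. In ITGA8+ minus PDPN+ cells 3 of 8 were higher, and in ALCAM+ minus liver 6 of 8, with Col6a2 at 4.27.

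Among 20 fibronectin, vitronectin, RGD and latent TGF-beta genes above the floor, 13 were 2-fold higher in PDPN+ than PDPN- cells and none was lower. They included the adhesive matrix protein gene Thbs1 at 4.46, Tgfb3 at 4.12, Npnt, a ligand of alpha 8 beta 1, at 3.50 and Ccn2 at 3.33. Tgfb3, whose latent product is activated by alpha v beta 8 in textbook accounts, was at 5079 in ITGA8+, 5308 in ITGA8-, 4301 in PDPN+ and 233 in PDPN- cells. Both Tgfb3 and Itgb8 were lowest in PDPN- cells, where Itgb8 was below the floor. Over the other fractions they differed: Tgfb3 stayed within 2-fold, and Itgb8 was at 202 in PDPN+ against 723 in ITGA8+ cells. Fn1, the ligand of alpha 5 beta 1, was at 9747 in ITGA8+, 9918 in ITGA8-, 11746 in PDPN+ and 15263 in PDPN- cells, within 2-fold. Vtn, the ligand of alpha v beta 5, was at 6933 in ITGA8+, 5934 in ITGA8-, 12570 in PDPN+ and 20496 in PDPN- cells. Between ITGA8+ and ITGA8- cells 0 of 21 were higher and 3 lower: Spp1, which encodes osteopontin, at -1.71, Ccn1 at -1.31 and Npnt at -1.06. In ITGA8+ minus PDPN+ cells 5 were higher and 3 lower of 21, with Spp1 at -3.60 and Tgfb1 at 2.81. In ALCAM+ minus liver 13 of 19 were higher, with Npnt at 4.38, and none was lower.

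**Figure D5:**
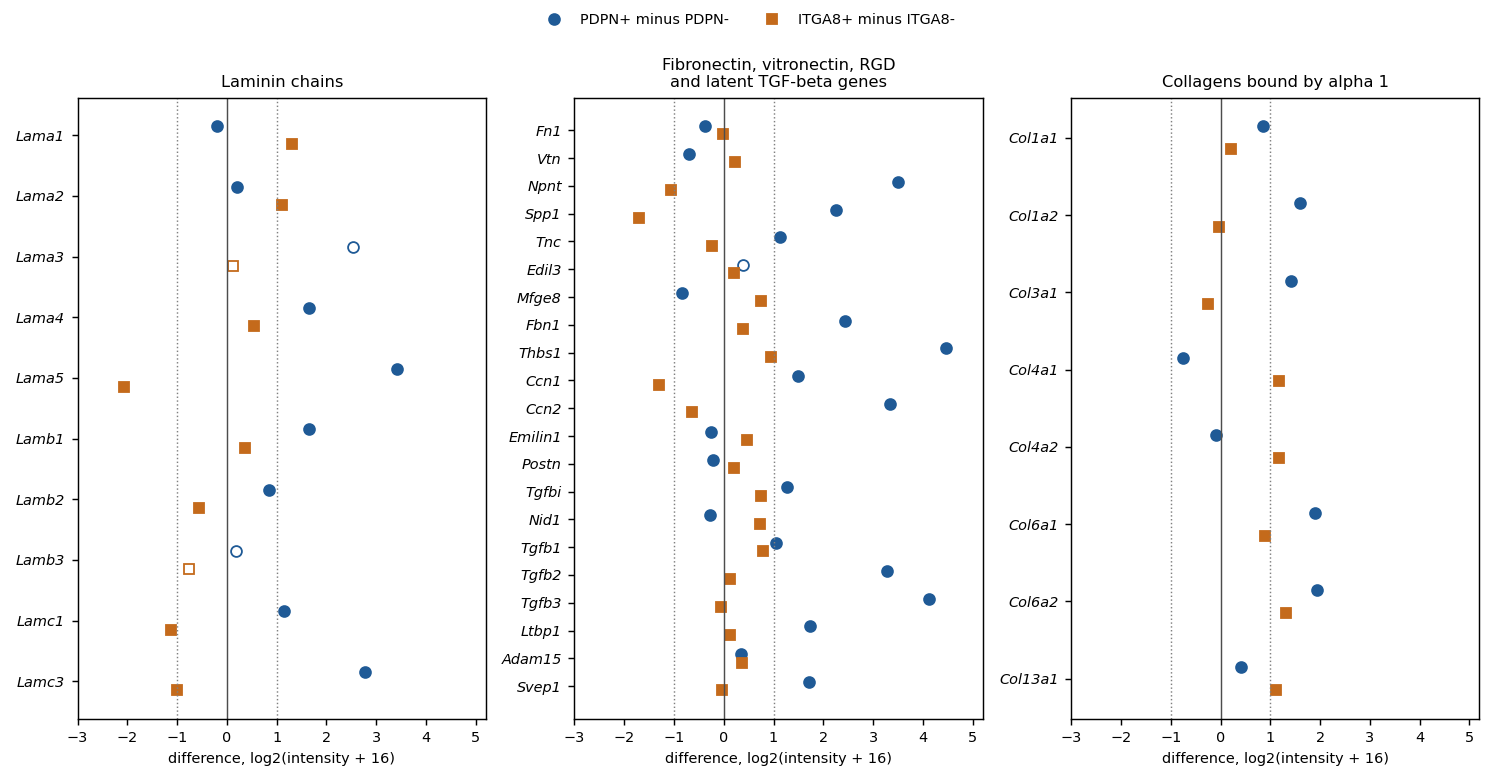
Differences on the log2(intensity + 16) scale (x axis) of ligand genes (rows) in PDPN+ minus PDPN- (blue circles) and ITGA8+ minus ITGA8- (orange squares); open symbols were at or below the floor in both arrays and dotted lines mark 2-fold. Lama5 lies at 3.41 and -2.06, and Col4a1 at -0.76 and 1.17.

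Of the cell surface ligands, 0 of 5 above the floor were past 2-fold in the PDPN pair and 0 of 7 in the ITGA8 pair. Vcam1, the surface ligand of alpha 4 beta 1 and alpha 9 beta 1, was at 3243 in ITGA8+, 2926 in ITGA8-, 7267 in PDPN+ and 12695 in PDPN- cells. Both PDPN fractions were above both ITGA8 fractions for Vcam1, the opposite of Itga4. Between ITGA8+ and PDPN+ cells Vcam1 differed by -1.16, the tetraspanin gene Cd9 by -2.78 and Jam2 by 1.44. In ALCAM+ minus liver 1 of 5, the tetraspanin gene Cd151, was higher, by 2.56.

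Of 20 activators and linkers of the adhesion complex, 7 were 2-fold higher in PDPN+ than PDPN- cells and none was lower. The leading ones were Fermt3, the blood cell kindlin, at 3.57, and Parvb at 3.44, followed by Parvg at 2.66 and Flna at 1.75. In ITGA8+ minus ITGA8- cells 3 of 19 were higher, Tln2 by 1.60, Tns1 by 1.09 and Tln1 by 1.05; talins bind beta chain tails to actin. In ITGA8+ minus PDPN+ cells 4 of 20 were higher, and in ALCAM+ minus liver 10 of 18, and none was lower in either. Fermt2, the kindlin of most other cells, was at 5595 in ITGA8+, 5045 in ITGA8-, 4781 in PDPN+ and 7063 in PDPN- cells. Of 16 signalling genes and inhibitors, 3 were higher in PDPN+ than PDPN- cells, led by Ptk2b at 4.45, near the share of 19.8% of all genes. In ITGA8+ than ITGA8- cells 2 were higher, the scaffold gene Bcar1 at 1.52 and the integrin inhibitor gene Sharpin at 1.02. None was lower in either pair. In ITGA8+ minus PDPN+ cells 2 were higher and 1 lower, and in ALCAM+ minus liver 4 were higher and 2 lower.

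For the 6 members past 2-fold in the PDPN or ITGA8 pair, the genes with the most similar pattern were found by Euclidean distance over the 6 arrays, with log2 levels centred separately in the 4 fraction arrays and in the ALCAM+ and liver arrays, among 14537 other genes. Nearest to Itga3 were Aff3, at a distance of 0.23, and Syne2, at 0.24. Nearest to Itga6 were Hs3st2, at 0.20, and Myo16, at 0.25, which were at 6 and 5 in PDPN- cells. Itga4 was nearest to Myh7b, at 0.33, and to Ermap, a gene of the erythroid membrane, at 0.45. Ermap was at 14162 in ITGA8+, 8693 in ITGA8-, 1297 in PDPN+ and 523 in PDPN- cells, the same order as Itga4. Itga9 was nearest to Il27ra, at 0.20, and Cldn11, at 0.24, and Itgb5 to Rtkn, at 0.16, and Man1c1, at 0.18. The distances of Itgb8 were larger, 0.50 to Cemip and 0.53 to Armh4. With 6 arrays on 2 scales, such nearness rests on few values.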

How the data were processed

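The 6 samples, 1 per group as their source labels give it, were measured on Affymetrix Mouse Genome 430 2.0 arrays. From 20 ng of total RNA a biotin-labelled, amplified target was made, according to the labels' protocols. The deposited values are intensity values, whole numbers on a linear scale. The submitters' processing notes name RMA and Partek. Not given in the sources used here are their versions and any genome build. The distributions differ between arrays, and ALCAM+ and liver have another scale.

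Of 45101 probe sets, 64 were controls. Gene symbols came through Entrez identifiers from RefSeq (GRCm38.p6), which matched 92.11% of probe sets of 1 gene. Values were taken as log2(intensity + 16), and folds understate the change of low genes. A gene entered a comparison where its higher array exceeded the floor and was counted past 2-fold. No test was possible with 1 array per group, and the number of arrays limits precision. Named were all members, up to 4 genes per list and comparison by size, the 2 nearest genes, and further genes chosen after their values were seen (Fn1, Vtn, Vcam1, Lama5, Col4a1, Tgfb3, Fermt2, Myb and Itgb1 among them). The members and the 15 lists, with 183 entries, were chosen with earlier results of these data known. Itga11, Itgad, Lrrc32 and Fermt1 had no probe set naming them alone. Of the ligand lists, 1 gene is not reported here by value and is left out of the ligand plot. The readings over both pairs or both sorts, the exchange of arrays, and marker sums without Myb or Alcam were added after seeing the data. Computations used Python 3.11.15, pandas 2.3.3 and numpy 2.4.6, figures matplotlib 3.10.9, and the steps were tested on simulated data.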

Additional observations from a re-analysis of the deposited data

How the results depend on the processing

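No paired analysis was possible because each group has 1 array and no number links arrays. Leaving out a replicate was not run, as no group holds another array. Depth is not recorded for arrays, and values under the floor carry little signal over background. The cause of the changes below was not tested.

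For PDPN+ minus PDPN-, quantile normalisation left 1743 genes higher, and without a floor 1671 were lower. At 4-fold 1210 genes were higher and 108 lower. Relative to the median of all genes 4 members were higher and 1, Itga5, was lower, against 2557 and 1122 genes. With ITGA8+ in place of PDPN- cells 0 members were higher and 4 lower, 2269 genes were lower, Itga4 was at -2.97 and Itgb8 at -1.76. With ITGA8- in place of PDPN+ cells Itga3, Itga4, Itga6 and Itgb8 were again higher and 1 member, Itgb5, was lower, against 3254 and 1478 of 13702 genes. The Itga4 probe set below the floor gave -0.20.

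For ITGA8+ minus ITGA8-, 1294 genes were higher without a floor. With the mean over probe sets 0 members were higher and 1 was lower, against 452 and 631 genes. With specific probe sets only, 0 members were higher and 0 lower, against 556 and 810 genes. At 4-fold 0 members and 47 genes were higher and 64 lower. With PDPN+ in place of ITGA8- cells 4 members and 2269 genes were higher and 1992 lower. With PDPN- in place of ITGA8+ cells 1 member was higher and 4 were lower, against 1478 and 3254 genes, and Itga9 was at -0.90.

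For ITGA8+ minus PDPN+, 3973 genes were higher without a floor. At 4-fold 1 member and 568 genes were higher and 484 lower. The mean over probe sets and specific probe sets only each gave 3 members higher and 1 lower, with Itga5 at -0.17 and -1.23. Genes higher and lower were 1667 and 1644 by the mean, and 1967 and 1929 with specific probe sets. The other probe sets of Itga5 gave -0.53, -0.10 and -1.23.

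For ALCAM+ minus liver, a pseudocount of 1 gave 3 members higher and 1 lower, against 1959 and 1340 genes. Without a floor 6 members and 3212 genes were higher. The mean over probe sets gave 1 member higher and 1 lower, against 1132 and 787 genes, with Itgav at -0.31. Quantile normalisation gave 4 members higher, Itga3, Itgav, Itgb5 and Itgb8, and 0 lower, against 2486 and 1897 genes. Itgb8 was then at 3.17, and with a pseudocount of 64 at 0.36. At 4-fold 1 member and 387 genes were higher and 252 lower. As deposited 6 members and 4961 genes were higher and 290 lower. The other probe sets of Itgav gave -0.86, -0.43, -0.97 and -1.59, and only the last was above the floor.

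With the mean over probe sets 1 member, Itga3, passed 2-fold in both pairs in opposite directions, and at 4-fold 1 member, Itga4, separated the sorts. The shares of all genes with these patterns were not counted at these settings.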
